A study of Mus musculus with 6 samples.

Results

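A set of 104 transcript IDs was present in 4 of 6 mouse fibroblast libraries and low or absent in the same other two. The set was chosen by the measured values themselves, as counts per 1000000 counts of the library (CPM). Each member measured at least 2 CPM in Rb1+/+ replicates 1, 2 and 3 and in Rb1L/L replicate 1. In both Rb1L/L replicate 2 and Rb1L/L replicate 3 it measured under 25% of the lowest of those 4 values. The 104 members were 0.797% of the 13052 IDs at 2 CPM or more in the 4 libraries and 0.188% of the 55419 IDs in the table. The choice of those 2 low libraries came from uc012hdk.1, the most abundant ID, which was known to be low in them. The rule used every library of the only table, so each level, ratio and count of members below describes how the set was selected and is not tested.

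The libraries were made from rRNA-depleted total RNA of mouse embryonic fibroblasts (MEFs), which are primary cells of connective tissue, here taken from E13.5 embryos and collected while proliferating at passage 4. There were 3 Rb1+/+ (wild-type) and 3 Rb1L/L libraries, the latter homozygous for the Rb1 allele that the labels call L. The study asked how expression differs between the genotypes, in the setting of condensin II and divergently paired genes. Whether each replicate was a separate embryo is not in the labels, and p-values therefore reflect only how these libraries vary, which may be in part technical. The labels speak of pairs but do not say that a replicate number marks one, so the main test used no pairing. All 6 libraries shared the culture, passage, RNA extraction and library kit given in the labels.

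Rb1 encodes pRb, the retinoblastoma protein, which binds E2F transcription factors and restrains entry into S phase. Many chromatin proteins reach pRb through a binding cleft, and mouse alleles of Rb1 that alter this cleft are used to separate those contacts from E2F control. rRNA-depleted total RNA contains messenger RNA together with abundant noncoding RNAs, and a single gene can carry several transcript IDs. No ID comes with a gene symbol in the file, and a search of the gene tables in hand matched 0 of 55419. Rb1 itself, fibroblast markers, gene lists and members' functions were therefore not analysed here, and members other than the first 2 are given by their rank in abundance.

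Library totals ran from 14325677 to 20525072 counts, and Rb1L/L replicates 2 and 3 were the shallowest at 15915273 and 14325677. These 2 libraries also correlated least with each other among the 15 library pairs (Pearson r of log2 CPM across 22085 IDs, 0.753, against 0.761 to 0.851 for the other 14). The libraries that shared the members' low values were thus not the most alike over all IDs. With the 2 most abundant members set aside, all other IDs summed to 889267 to 895093 CPM in the 4 high libraries and to 998770 and 995020 CPM in Rb1L/L replicates 2 and 3. The CPM of other IDs therefore sat slightly higher in those 2 libraries, with medians of 20.3 and 21.01 CPM over the 13052 IDs, against 18.1 to 19.2 CPM in the other 4. In bulk RNA, fewer cells carrying a transcript and less of it per cell cannot be told apart.

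The member with the highest level, uc012hdk.1, was also the most abundant ID of the 13052. It measured 91854, 95141 and 90245 CPM in Rb1+/+ replicates 1, 2 and 3. Rb1L/L replicate 1 held 90558 CPM, while Rb1L/L replicates 2 and 3 held 1147 and 4524 CPM. The 4 high libraries lay within 1.05-fold of one another, the narrowest range of any member. The lowest of them was 19.95-fold above the higher of the 2 low libraries. Relative to the mean of the 4 high libraries, 1.25% was left in Rb1L/L replicate 2 and 4.92% in replicate 3. These remainders still rested on 18254 and 64809 counts, so counting error was small. Replicate 3 was 3.94 times replicate 2 (exact Poisson 95% interval 3.88 to 4.01).

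The second member, uc009vev.1, was likewise lowest in Rb1L/L replicate 2, followed by replicate 3, but the order of its 4 high libraries differed. Its values were 13053, 15593 and 15798 CPM in Rb1+/+ replicates 1, 2 and 3 and 15460 CPM in Rb1L/L replicate 1. In Rb1L/L replicates 2 and 3 it measured 82.7 and 455.8 CPM. The high libraries spanned 1.21-fold, and the lowest was 28.6-fold above the higher low library. What was left came to 0.552% in replicate 2 and 3.04% in replicate 3, from 1316 and 6530 counts. The drop was therefore deeper than for uc012hdk.1 in both libraries. The ratio of uc009vev.1 to uc012hdk.1 counts was 0.142, 0.164, 0.175 and 0.171 in the 4 high libraries, 0.0721 (exact 95% interval 0.0681 to 0.0763) in Rb1L/L replicate 2 and 0.101 (0.0982 to 0.103) in replicate 3. Both low libraries thus lay below the range of the high ones, and they differed from each other beyond counting error. All intervals here cover counting error only, since reads made by PCR are not independent molecules.

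**Figure D1:**
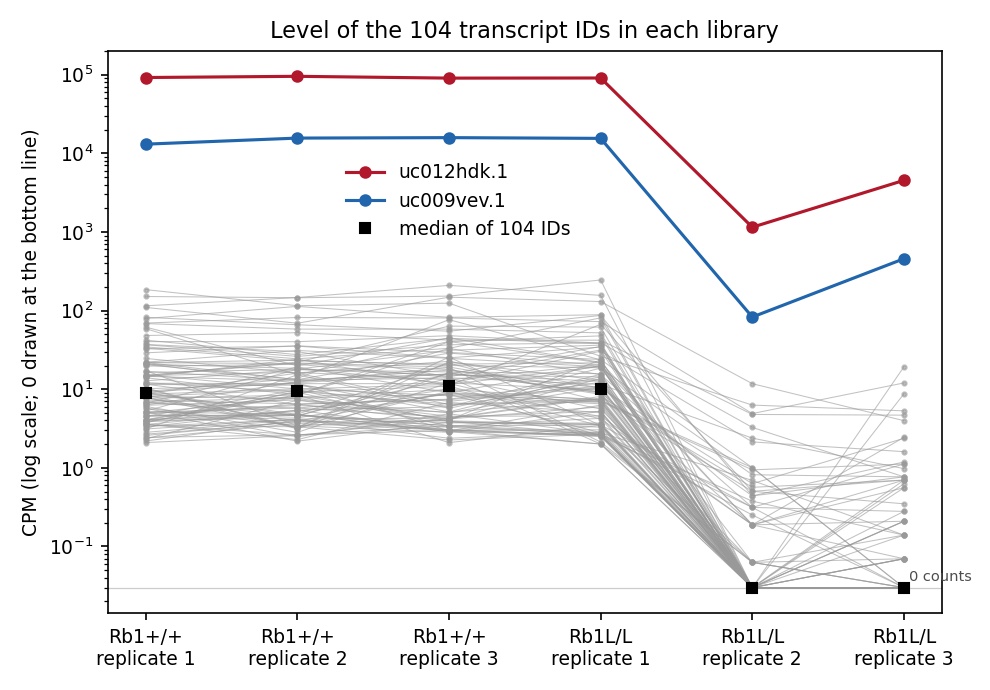
CPM (vertical log axis, 0 drawn at the bottom line) of the 104 transcript IDs in each of the 6 libraries (horizontal axis), 1 grey line per ID, with uc012hdk.1 in red, uc009vev.1 in blue and the median as black squares. The 2 coloured IDs stay above all others in every library, and the median is 0 in Rb1L/L replicates 2 and 3 after 8.84 to 11.03 CPM in the other 4.

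As plotted by library, the median member measured 8.84, 9.57, 11.03 and 10.1 CPM in the 4 high libraries and 0 in both low ones. The connecting lines join values of 1 ID and imply no order among libraries.

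IDs of this type carry serial codes, and IDs with neighbouring codes were compared because they may belong to 1 locus, which could not be checked without positions. Around uc012hdk.1 no neighbour within 5 places was low in the same 2 libraries. The ID directly after it averaged 492.4 CPM over the 4 high libraries and 465.3 CPM over Rb1L/L replicates 2 and 3, or 94.5% of the former. The ID after that averaged 1239 and 1179 CPM (95.2%). The ID directly before it measured 22.4 to 26.5 CPM in the 4 high libraries and 29.5 and 34.1 CPM in the low ones. The ID 5 places before it took another course, measuring 4.34, 0.149 and 0.170 CPM over Rb1+/+ replicates 1, 2 and 3 but 40.8, 44.6 and 41.5 CPM over the Rb1L/L libraries. In this neighbour Rb1L/L replicate 1 thus lay close to Rb1L/L replicates 2 and 3, unlike in uc012hdk.1. The remaining IDs within 5 places were at 0 in every library. uc012hdk.1 held 98.1% of the CPM of those places in the high libraries, and their sum still met the rule, with 0.0486 of the high mean left.

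Around uc009vev.1 the picture was graded. The next ID averaged 4502 CPM in the high libraries and 2144 CPM in the low ones (47.6%). In the single libraries this neighbour measured 3644, 5429, 4588 and 4350 CPM against 2155.5 and 2132 CPM, so its low values lay below all of its high ones. The neighbour 2 places after uc009vev.1 averaged 2339 and 1405 CPM (60.1%). At 3, 4 and 5 places the shares were 97.9%, 92.2% and 88.7%, and uc009vev.1 with its neighbours within 5 places summed to 0.514 of the high mean. The first neighbours were thus also lower in Rb1L/L replicates 2 and 3, but not by enough to meet the rule.

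The first 2 members held 98.1% of all member counts. Together the 104 IDs took 10.7% of the library total in Rb1+/+ replicate 1 (exact Clopper-Pearson 95% interval 10.68% to 10.71%), 11.3% in replicate 2, 10.8% in replicate 3 and 10.8% in Rb1L/L replicate 1. Their share was 0.128% (0.126% to 0.129%) in Rb1L/L replicate 2 and 0.505% (0.502% to 0.509%) in replicate 3. Without the first 2, the remaining 102 summed to 2044, 1886, 2251 and 2165 CPM in the high libraries and to 45.9 and 74.3 CPM in the low ones. The remainder of the set was thus of modest abundance and even in sum over the 4 high libraries.

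Below the first 2 there was a wide gap, since the member of rank 3 averaged 173.5 CPM over the high libraries. It measured 150.9, 145.5 and 152.6 CPM in the Rb1+/+ libraries and 244.8 CPM in Rb1L/L replicate 1, with 0 counts in both low libraries. Against a floor of 3 counts per library (0.189 CPM in Rb1L/L replicate 2 and 0.209 CPM in replicate 3) it was at least 695-fold lower. With its neighbours within 5 places, however, the sum in the low libraries was 0.984 of the high mean. The loss of this ID was therefore not seen in the level of its serial surroundings, where it made up 39.7% of the CPM.

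The member of rank 7 showed the reverse relation to its neighbours. It measured 79.1, 112.9 and 82.0 CPM in Rb1+/+, 88.5 CPM in Rb1L/L replicate 1 and 0 counts in both low libraries, at least 378-fold lower. It held 94.1% of the CPM within 5 places, and that sum also met the rule (0.101 of the high mean left). Only the windows of the members of ranks 1 and 7 met the rule as sums among all 104. The member of rank 10 came near, at 68.3, 58.0 and 58.1 CPM in Rb1+/+, 52.0 CPM in Rb1L/L replicate 1 and 0 counts in both low libraries. It was at least 248-fold lower, with 0.210 of the high mean left in the sum over its window.

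Other abundant members varied more between the high libraries. The member of rank 6 measured 184.5, 115.1 and 124.2 CPM in Rb1+/+ but only 26.2 CPM in Rb1L/L replicate 1, and 6.28 and 5.31 CPM in the low libraries. All 3 Rb1L/L libraries of this member lay below all Rb1+/+ libraries, with Rb1L/L replicate 1 at 0.186 of the Rb1+/+ mean. The member of rank 5 measured 109.6, 69.0, 147.9 and 130.2 CPM in the high libraries, 11.8 CPM in Rb1L/L replicate 2 and 3.98 CPM in replicate 3. Its low values were thus in the opposite order to those of the first 2 members.

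The median mean level of the 104 members over the high libraries was 9.79 CPM, with a range of 2.64 to 91950 CPM, against a median of 18.98 CPM over the 13052 IDs. By level, members were 24 of 1501 IDs under 5 CPM (1.60%), 29 of 2521 at 5 to 10 CPM (1.15%), 45 of 7409 at 10 to 100 CPM (0.607%) and 4 of 1529 at 100 to 1000 CPM (0.262%). Above 1000 CPM they were 2 of 92 (2.17%). The share of members was thus lower in each higher class up to 1000 CPM, and the first 2 stood outside that order. No member's counts were identical to those of another ID over the 6 libraries.

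Members were less even over the 4 high libraries than other IDs. The highest of the 4 exceeded the lowest by a median of 2.25-fold (1.05 to 10.3) among members and 1.60-fold over the 13052 IDs. In 44 members (42.3%) the 4 values lay within 2-fold, against 70.3% of all. In 21 members (20.2%) they spanned over 4-fold, against 6.91%. Members were on the whole less abundant than the other IDs, but between 10 and 100 CPM the medians of the highest over the lowest library still differed, at 2.34 for members and 1.57 for all IDs.

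Rb1L/L replicate 1 lay within the range of the 3 Rb1+/+ libraries in 50 members (48.1%), above it in 23 and below it in 31. Over the 13052 IDs the shares were 44.9% within, 26.7% above and 28.4% below. The median ratio of Rb1L/L replicate 1 to the Rb1+/+ mean was 0.929 among members (0.111 to 4.05) and 0.974 over all. It was under 50% of the Rb1+/+ mean in 12 members (11.5%, against 5.26% of all) and over 2-fold above it in 11 (10.6%, against 3.52%). Members of this library thus stood on both sides of the wild type. The rule itself kept Rb1L/L replicate 1 over 4-fold above both low libraries, so its distance from them is not a finding.

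In the low libraries most members left few or no reads. There were 69 members at 0 counts in Rb1L/L replicate 2, 62 in replicate 3 and 55 (52.9%) in both. For these 55, whose high mean ran from 2.64 to 173.5 CPM, the floor of 3 counts gave bounds from at least 9.59-fold to at least 695-fold lower, with a median of 21.8-fold. At the low end of that range the bound was set by depth, and the bound was 100-fold or more in 6 of the 55. The other 49 members had a fold of 4.05 to 134.3, with a median of 8.72, from the lowest high library to the higher low one. Their summed low counts had a median of 13.

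Of those 49 members, 30 were higher in Rb1L/L replicate 3 and 19 in replicate 2. The first 2 members, with replicate 3 higher by 3.94 and 5.51 times, were not typical of the rest. Among the 25 other members with at least 10 counts in the low libraries together, the exact 95% interval of the replicate 3 to replicate 2 ratio held 3.94 in 8, lay below it in 14 and above it in 3. The whole interval lay below 1 in 6 of them and above 1 in 8. The 20 of these with counts in both low libraries had ratios from 0.202 to 13.0, with a median of 1.21. The ratio of the 2 low libraries thus differed among members beyond counting error, and the cause was not tested.

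**Figure D2:**
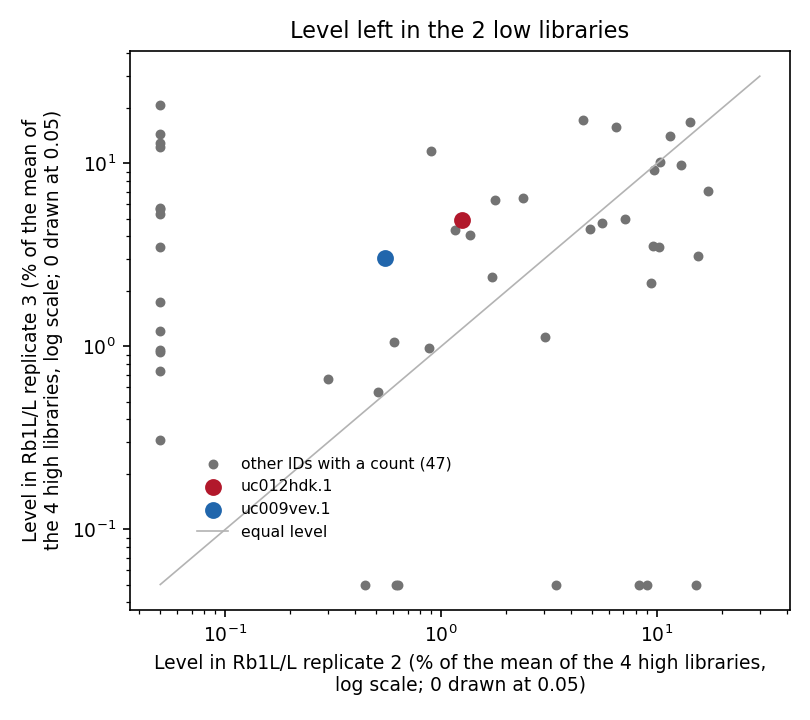
Level left in Rb1L/L replicate 2 (horizontal) and replicate 3 (vertical), each as percent of the mean of the 4 high libraries on log axes with 0 drawn at 0.05, for the 49 members with a count in either library; the grey line marks equal levels. uc012hdk.1 (1.25% and 4.92%) and uc009vev.1 (0.552% and 3.04%) lie above the line, while the other IDs lie on both sides of it, 14 of them at 0 in replicate 2 only and 7 at 0 in replicate 3 only.

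At the limit of 25%, the member closest to it had 24.7% left (0.691 against 2.80 CPM) and the nearest ID outside it 25.6% (1.63 against 6.39 CPM), the higher low library being set against the lowest high one. At the limit of 2 CPM, the nearest values in the lowest high library were 2.01 CPM inside and 1.95 CPM outside. These nearest IDs were low in abundance and rested on few reads. The member of rank 6, with a high mean of 112.5 CPM, also lay close to the limit of 25%, at 23.96% (6.28 against 26.2 CPM).

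The same rule was applied to the other 14 choices of 2 low libraries among the 6. These gave 20 to 91 IDs, out of 12667 to 12925 IDs at 2 CPM or more in their 4 high libraries. The nearest counts were 91 for Rb1L/L replicates 1 and 2, 74 for Rb1+/+ replicate 3 with Rb1L/L replicate 2, 62 for Rb1+/+ replicate 3 with Rb1L/L replicate 3 and 60 for Rb1L/L replicates 1 and 3. Choices within Rb1+/+ gave 58 (replicates 1 and 2), 44 (replicates 1 and 3) and 26 (replicates 2 and 3). The 104 was thus the largest of 15 counts, but every choice of 2 low libraries had such IDs.

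Single low libraries showed where these counts came from. With the same 4 high libraries, 416 IDs were under the 25% limit in Rb1L/L replicate 2 and 426 in replicate 3. The 104 were 25% of the first and 24.4% of the second. In the other 14 choices 127 to 410 IDs were low in 1 of the libraries, and those low in both were 5.80% to 34.5% of them. The 2 libraries thus had the highest numbers of IDs low in each. The shared fraction lay inside the range of the other choices, but that range pools different libraries. For Rb1L/L replicate 2 alone, the fraction shared with another library was 8.43% to 22.2%, against 25% with replicate 3. For Rb1L/L replicate 3 alone it was 5.80% to 16.2%, against 24.4% with replicate 2. Each of the 2 thus shared its largest fraction with the other. Rb1L/L replicates 2 and 3 were also the shallowest libraries, and the part of depth in these counts was not tested.

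The 2 low libraries were picked from uc012hdk.1, so the abundance of the leading member and the summed level of the set were fixed by that choice and are given only as values. Over 1000 CPM there were 2 IDs here and 0 in each of the other 14. Over 100 CPM there were 6 here and 0 to 2 elsewhere, with the most abundant ID of the other choices at 37.7 to 395.2 CPM. The summed level of the set was 109012 CPM, against 311.5 to 1446 CPM in the others. The median level was 9.79 CPM here and 7.52 to 12.7 CPM elsewhere. The share of IDs at 0 in both low libraries was 52.9% here and 31.0% to 63.7% elsewhere.

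**Figure D3:**
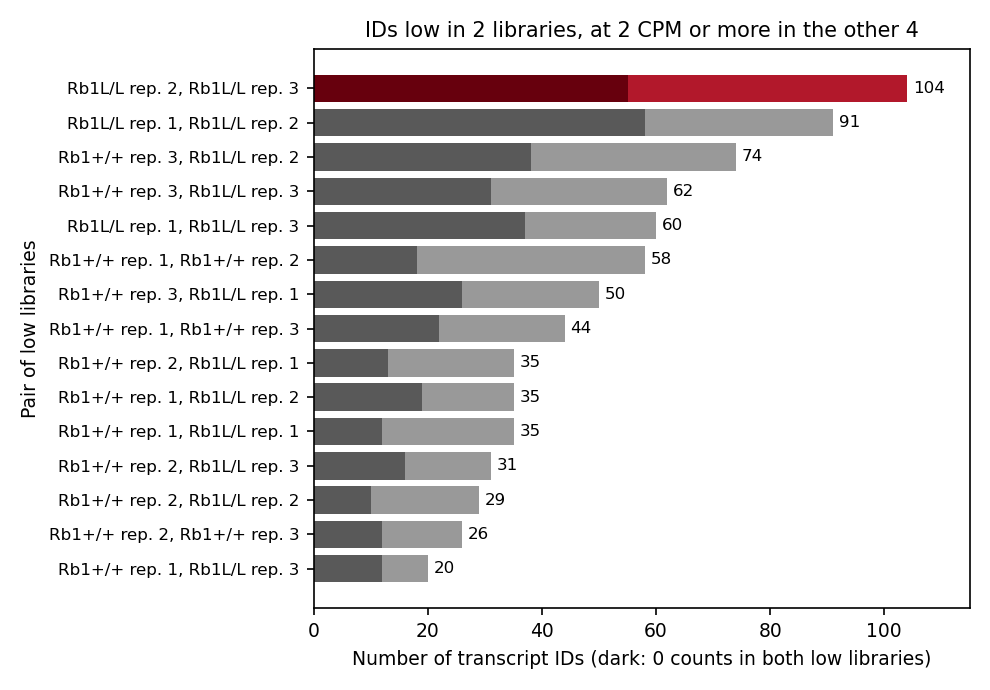
Number of transcript IDs (horizontal) low in each of the 15 pairs of libraries (vertical) and at 2 CPM or more in the other 4; the dark part of a bar counts IDs at 0 in both low libraries. The pair of Rb1L/L replicates 2 and 3 (red) has 104 IDs, of which 55 are at 0 in both, and the next pair has 91, of which 58 are at 0 in both.

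In the bars of IDs by library pair, 3 of the 5 longest pairs include Rb1L/L replicate 2 and 3 include Rb1L/L replicate 3. The bars share libraries and are therefore not independent of one another.

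Serial neighbours of members were themselves members more often than those of the 13052 IDs. The other 14 choices of 2 low libraries were not compared in this respect. Another member stood directly beside 8 of the 104 (7.69%), against 0.613% of the 13052 IDs, and within 5 places of 14 (13.46%, against 2.57%). The 8 formed 4 adjacent couples. In one of them the members of ranks 18 and 16 measured 58.9 and 61.5 CPM in Rb1+/+ replicate 1, 15.2 and 19.8 in replicate 2, 40.4 and 44.8 in replicate 3, and 21.6 and 22.0 in Rb1L/L replicate 1. The couple thus followed each other over the high libraries as well, and in the low libraries 1 had no counts and the other 0.189 and 0.209 CPM. How reads that fit both IDs were counted is not known here, so such couples may not be separate observations.

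The mirror pattern was sought as the opposite of the rule, at 2 CPM or more in Rb1L/L replicates 2 and 3 with each of the other 4 libraries under 25% of the lower one. It held 55 IDs, and the other 14 choices held 33 to 139. Their level in the 2 libraries ran from 2.80 to 161.4 CPM with a median of 12.6 CPM, and 13 of them had 0 counts in all 4 other libraries. The most abundant, uc007dxq.1, measured 0.536, 3.22 and 2.49 CPM in Rb1+/+, 2.98 CPM in Rb1L/L replicate 1, and 146.0 and 176.8 CPM in Rb1L/L replicates 2 and 3. The second, uc007dvw.2, had 1 count over the 4 other libraries and 170.2 and 90.9 CPM in Rb1L/L replicates 2 and 3. No mirror ID came near the level of the first 2 members.

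Mirror IDs lay close to members. A mirror ID was directly beside 8 members (7.69%, against 0.284% of the 13052 IDs) and within 5 places of 16 (15.4%, against 1.12%). In the other 14 choices 6.45% to 25.9% of the IDs had a mirror ID of their own choice within 5 places, so this proximity was not greater here than elsewhere. Of the 55 mirror IDs, 15 (27.3%) had a member within 5 places. Member and mirror ID were summed in 16 combinations, of which those of ranks 21 and 48 used the same mirror ID. In 14 of 16 the mean over Rb1L/L replicates 2 and 3 was within 2-fold of the mean over the other 4 libraries. The ratios of these 14 ran from 0.552 to 1.65. The other two sums were 4.23-fold and 15.2-fold higher in the low libraries. The mirror IDs were chosen for being high there, so part of this balance follows from the choice. Such sums were not made for the other 14 choices.

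The member of rank 4, located 2 places after uc007dxq.1, was the most abundant member with such a sum. Alone it measured 114.9, 146.4 and 209.0 CPM in Rb1+/+, 155.9 CPM in Rb1L/L replicate 1, 0 in Rb1L/L replicate 2 and 19.3 CPM in replicate 3. Added to uc007dxq.1 it gave 115.4, 149.6, 211.5 and 158.8 CPM in the high libraries and 146.0 and 196.1 CPM in the low ones. The low libraries of the sum thus fell inside the range of the high ones. The member of rank 9 and the mirror ID directly before it likewise summed to 72.3 CPM over the high libraries and 76.2 CPM over the low ones.

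**Figure D4:**
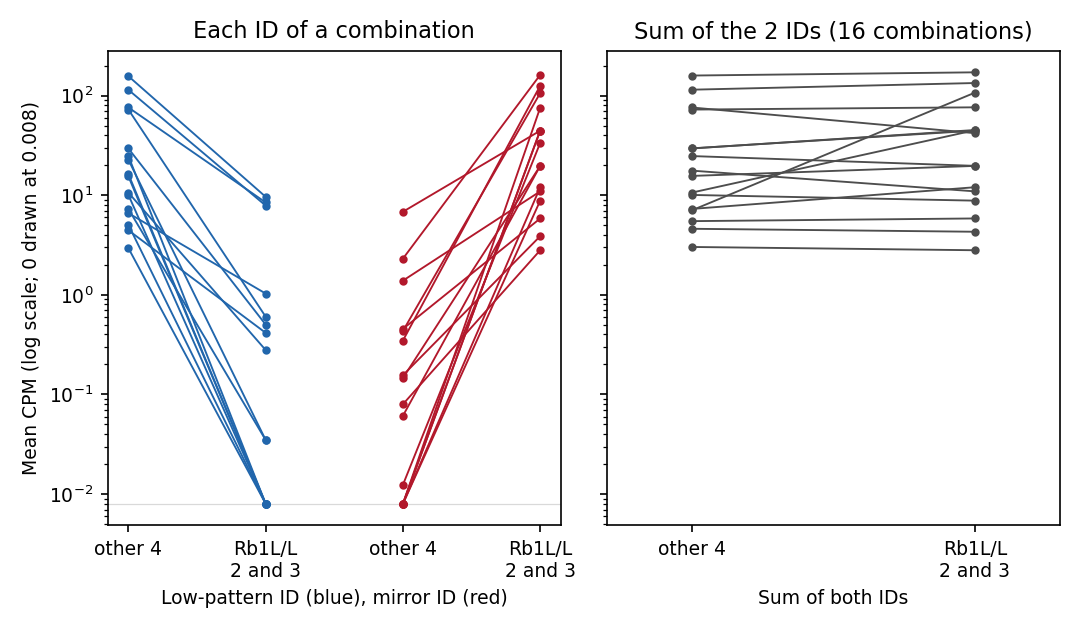
Mean CPM (vertical log axis, 0 drawn at 0.008) over the other 4 libraries and over Rb1L/L replicates 2 and 3, for the 16 members with a mirror ID within 5 places (left panel, members blue, mirror IDs red) and for the sum of both (right panel); each line is 1 ID or 1 sum. In 14 of 16 sums the 2 means lie within 2-fold, and the 2 exceptions are higher in Rb1L/L replicates 2 and 3.

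More widely, adding a single serial neighbour ended the pattern in most members. The sum of a member and its previous ID still met the rule in 38 of the 102 members with such a neighbour. With the next ID it did so in 37 of 101, and with both in 19 of 99. Members made up a median of 10.3% of the CPM within 5 places (0.593% to 98.1%), and the sums over those places had a median of 1.03 for the low libraries over the high mean (0.0486 to 1.89). A large neighbour can hide the loss of a small member, and only 6 members made up over 50% of their window. The sum over the window met the rule in 2 of these 6 and in 0 of the other 98. For the member of rank 9, which was among the 6, that sum was 1.04 of the high mean in the low libraries. Among the members the first held the largest share of its window, at 98.1%, followed by those of ranks 7 (94.1%) and 9 (91.0%).

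The genotype comparison of the study sets all 3 Rb1L/L libraries against all 3 Rb1+/+ libraries, which places Rb1L/L replicate 1 with the low libraries. The edgeR quasi-likelihood test called 2 of 22085 IDs lower in Rb1L/L at an adjusted p under 0.05 (0.00906% of those tested), and 0 of the 104 members. The smallest adjusted p of a member was 0.369. At an unadjusted p under 0.05, edgeR had 940 IDs lower in Rb1L/L (4.26% of those tested), and 4 of the 104 members. DESeq2 called 420 IDs lower (2% of the 21005 IDs to which it gave an adjusted p), and 2 of the 80 members given one. limma-voom called 0 IDs lower (0% of 22085) and 0 members. At an unadjusted p under 0.05 it had 1158 IDs lower (5.24% of those tested), and 60 members. The same libraries chose the members, so nothing is read from these counts.

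uc012hdk.1 averaged 92413 ± 2495 CPM over the Rb1+/+ libraries and 32076 ± 50675 CPM over the Rb1L/L libraries (SD, n = 3 each). On the log2 scale the difference was -1.53 ± 1.51 (SE), with an edgeR adjusted p of 0.85. uc009vev.1 averaged 14815 ± 1529 and 5333 ± 8773 CPM (SD, n = 3 each), and a log2 difference of -1.47 ± 1.72 (SE), with an edgeR adjusted p of 0.878. The SD within Rb1L/L exceeded the mean for both, and the differences between genotypes did not pass the test. uc007dxq.1 had a log2 difference of 5.50 ± 1.55 (SE), with an edgeR adjusted p of 0.484, and uc007dvw.2 did not pass the filter on low counts. Over the members the median log2 fold change was -1.62, against -0.02 over all IDs tested. With the same 6 libraries the members' median was -4.88 in limma-voom and -5.13 in edgeR with the replicate block, against -0.06 and -0.05 over all IDs, so its size depended on the model. Leaving out Rb1L/L replicate 1 turns the comparison into the one the members were chosen on, and no value of that fit is given here.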

How the data were processed

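RNA abundance was measured in 6 libraries, grouped by the genotype and replicate number in the sample titles. Per UCSC-style transcript ID, the authors deposited a whole-number count for each library, not normalized. The submitters' processing notes name mm9, STAR 2.5.0a, StringTie 1.3.2 and DESeq2. Their roles, the strand setting and the handling of reads that fit several IDs were not stated in any source used here. The table had 0 columns that match no sample. The GENCODE M21 reference (GRCm38) is another build, and 0 IDs matched its tables, so no sequences, positions or names are given.

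CPM are counts divided by the library total times 1000000. The members and all comparisons were chosen with earlier results of these data known. Without gene names, the naming rule took the 2 members and the 2 mirror IDs with the highest mean level. Neighbours are IDs with adjoining serial codes in the table, and a window spans 5 places to each side. The genotype test was the edgeR 4.0.16 quasi-likelihood F test (R 4.3.3, filterByExpr, TMM, 2-sided, Benjamini-Hochberg over all IDs tested). Each SE of a log2 difference was derived from that test, as the absolute difference divided by the square root of F. Alternatives were DESeq2 1.42.0, limma-voom (limma 3.58.1), other scalings and filters, a replicate block and leaving out each library. Scripts were checked on simulated data.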

Additional observations from a re-analysis of the deposited data

How the results depend on the processing

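The number of member IDs was 104. It was 108 with TMM-adjusted library sizes, 109 without the largest ID in the totals, 118 without the 20 largest, 144 at a minimum of 1 CPM, 149 under a limit of 50%, 84 under 12.5%, and 84 when the exact Poisson upper bound of both low libraries had to meet the limit. It moved to 52 at a minimum of 5 CPM and 35 at 10 CPM, and to 38, 37 and 19 when members were summed with the previous ID, the next ID or both. The highest of the other 14 choices was 91, and under the scaling, level, limit and Poisson alternatives it stayed below the members' number, with gaps as small as 81 against 84 under the Poisson bound, 80 against 84 under 12.5% and 145 against 149 under 50%. Leaving out 1 library gave 140 to 426 IDs, because fewer libraries had to meet the rule: 184 without Rb1+/+ replicate 3, 203 without Rb1L/L replicate 1, 426 without Rb1L/L replicate 2 and 416 without Rb1L/L replicate 3. The genotype comparison called 2 IDs with edgeR, 1 with edgeR on library size only, 0 without a filter and 804 with DESeq2. It called 0 with limma-voom, 5 without the 20 largest IDs and 0 without each library in turn, leaving aside Rb1L/L replicate 1. The replicate block gave 0 calls and 0 members called. Deviations of libraries with the same number were nearly uncorrelated across IDs (r of 0.013, -0.028 and 0.001), and the numbers were not read as pairs. Members called were 0 with edgeR, 2 with DESeq2 and 0 without each library in turn. The fit without Rb1L/L replicate 1 is left aside here too, as a contrast the members were chosen on. The cause of the differences between tools and filters was not tested. Depth limited the folds of the 55 members at 0 in both low libraries, which are bounds.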
